A study of Mus musculus with 30 samples.

Results

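The 10 genes described here encode digestive enzymes and an enzyme cofactor made by the acinar cells of the exocrine pancreas. They are Prss2, Ctrb1, Cela1, Cela2a, Cela3b, Cpa1, Cpb1, Pnlip, Clps and Cel, picked by name as typical acinar products, and all 10 were present among the 17775 genes of the deposited expression table. It was measured by bulk RNA-seq in 30 libraries, each from islet cells of mice purified by fluorescence-activated cell sorting. The study asked how loss of beta-cells and forced Pdx1 change gene expression in glucagon-producing alpha-cells.

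The group alpha Pdx1 DT (n = 6) came from mice carrying Glucagon-rtTA with TetO-Cre, the reporter R26YFP, CAG-Pdx1 and RIP-DTR, injected with diphtheria toxin (DT) at 2 months of age and sampled 30 days after DT. The group alpha Pdx1 (n = 5) had the same alleles without RIP-DTR, at 3 months of age. The group alpha DT (n = 4) carried Glucagon-Venus and RIP-DTR and was injected at 2 months and sampled 30 days after DT. The group beta (n = 7) was Insulin-mCherry and the group alpha (n = 8) Glucagon-Venus, both at 3 months. RIP-DTR places the toxin receptor under the rat insulin promoter, so the toxin is aimed at insulin-producing cells. Alpha-cells with and without Pdx1 therefore differ in reporter and driver as well as in Pdx1. The groups given DT carried RIP-DTR and the groups without DT did not, so toxin and allele cannot be told apart. The labels do not say that libraries of a group came from separate animals, so p-values measure the spread between libraries, which may be in part technical.

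Values are quantile-normalized log2 values, a step that aims at the same distribution in every library. The quartiles over all values were 5.95, 8.55 and 10.37 and the top value was 22.57. The low ends still differed, with library minima of 0.758 to 2.348. Read totals are not in the table, so the depth behind each value is unknown. Differences between libraries of 1 gene can be read on this scale, whereas levels of different genes are not per transcript length and are not ranked against each other below.

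The sorted cells carried the hormone markers of their labels in most libraries. Gcg, the glucagon gene, was at or near the top of the table in the alpha groups, and Ins1 and Ins2, the insulin genes, in beta libraries. In 5 libraries a hormone or Pdx1 level went against the label. Pdx1 was 5.51 in alpha Pdx1 DT library 5 and 8.61 in alpha Pdx1 library 5, against 10.78 to 12.59 in the other libraries of those groups, and was 11.23 in alpha library 8, against 3.66 to 5.61 in the other alpha libraries. Gcg was at the top value of 22.57 in beta libraries 1 and 5, against 15.16 to 17.92 in the other beta libraries. Alpha Pdx1 DT library 5 and alpha library 4 were the most alike of all 435 pairs of libraries over genes (Pearson r = 0.993), and no enzyme gene differed by more than 0.88 between them. Results are therefore given with and without the 5 libraries where these change them.

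Acinar cells store digestive enzymes in zymogen granules and release them into the duct, many as inactive precursors that are cleaved in the gut. The enzyme genes are among the most abundantly transcribed genes of the pancreas and are driven in acinar cells by the PTF1 complex, whose parts Ptf1a and Rbpjl bind a bipartite DNA site made of an E-box and a TC-box. Endocrine alpha- and beta-cells are not known for making these enzymes. In bulk libraries, transcripts of acinar cells or free RNA among the sorted cells and transcripts of the sorted cells themselves cannot be told apart, nor can fewer cells of a type and less RNA per cell.

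The promoters are shown as background on these genes, and no link between their motifs and the levels in these libraries was tested. RefSeq sequences (GRCm38.p6) were held for 9 of the 10 genes, all but Clps, and the 250 bases before each transcription start were searched on both strands. An E-box, CANNTG, was present in 8 of 9 enzyme promoters and in 66.2% of 32851 promoters. TTTCCC, the core of the TC-box, was present in 6 of 9, against 21.9% of all promoters. The pair with at most 25 bases between them was present in 4 of 9, against 4.59% of all promoters. TATAAA was found in 3 of 9 (Prss2, Cela1 and Pnlip), against 12.4%. These are letter matches, not measured binding sites. In the stretches of Cel (chr2:28563443-28563509, minus strand), Cpa1 (chr6:30639160-30639217, plus strand), Ctrb1 (chr8:111691180-111691235, minus strand) and Cela1 (chr15:100687994-100688049, minus strand), capitals mark every E-box and TTTCCC or its reverse complement GGGAAA, and each stretch holds the promoter's closest pair and reads 5′ to 3′ on the gene's strand.
Cel: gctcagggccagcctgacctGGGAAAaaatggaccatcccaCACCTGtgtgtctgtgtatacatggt
Cpa1: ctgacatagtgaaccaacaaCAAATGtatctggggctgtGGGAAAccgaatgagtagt
Ctrb1: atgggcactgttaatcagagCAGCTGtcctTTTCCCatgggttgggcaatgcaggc
Cela1: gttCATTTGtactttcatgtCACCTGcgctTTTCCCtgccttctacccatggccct
The letters between the motifs of the closest pair number 15 in Cel, 13 in Cpa1, 4 in Ctrb1 and 4 in Cela1, whose promoter holds 3 such pairs.

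The 10 genes ranged widely between libraries, with best ranks of 9 to 206 and lowest ranks of 14809 (Pnlip) to 17392 (Clps) among the 17775 genes of a library. The mean of the 10 genes in a library ran from 3.69 in alpha Pdx1 library 2 to 14.89 in beta library 1. It was 10.51 ± 3.87 in alpha Pdx1 DT (SD, n = 6), 6.83 ± 3.49 in alpha Pdx1 (n = 5), 12.30 ± 3.00 in alpha DT (n = 4), 10.51 ± 3.64 in beta (n = 7) and 10.33 ± 2.14 in alpha (n = 8). All 10 were among the 1000 highest genes in 2 libraries each of alpha Pdx1 DT, alpha DT and beta, and in none of alpha Pdx1 or alpha. Libraries within a group thus differed more than the group means did. The 2 beta libraries with all 10 among the 1000 highest are libraries 1 and 5, whose Gcg level went against the label.

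**Figure D1:**
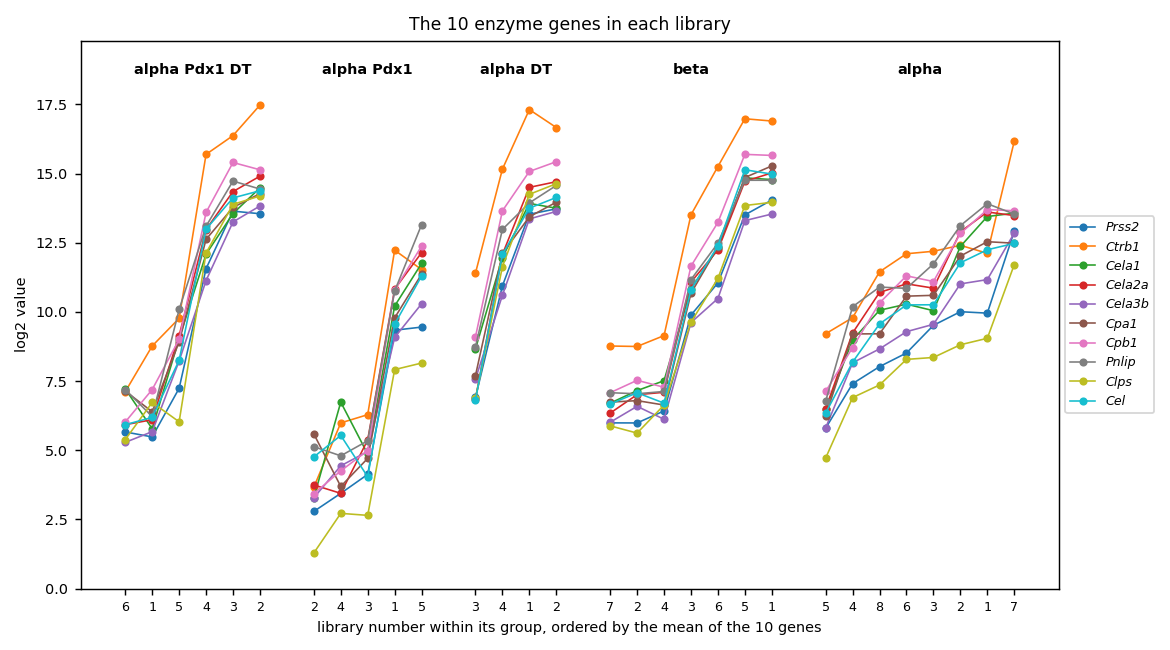
Log2 values of the 10 enzyme genes (colored lines) in each of the 30 libraries, which are ordered along the horizontal axis by the mean of the 10 genes within each group. The lines rise together in every group, and the library means run from 3.69 to 14.89.

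Of the serine proteases, Prss2 encodes trypsinogen 2, a precursor of the protease that activates the other pancreatic zymogens. In alpha Pdx1 DT its lowest, median and highest values were 5.48, 9.40 and 13.64, and in alpha Pdx1 it was 9.34, 2.79, 4.13, 3.44 and 9.45. In alpha DT it was 13.53, 13.72, 6.91 and 10.94, and the lowest, median and highest values were 5.99, 9.88 and 14.04 in beta and 5.80, 9.01 and 12.91 in alpha. Libraries lay far apart in every group, though alpha Pdx1 did not exceed 9.45, and every group's range overlapped every other's. Prss2 (chr6:41521776-41525079 in RefSeq) lies inside the annotated T-cell receptor beta locus Tcrb and beside near-identical trypsinogen genes, so its reads may be shared with them, depending on a counting rule that is not given in the sources used here.

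Ctrb1 encodes chymotrypsinogen B. It was 7.11 at the lowest, 12.73 at the median and 17.47 at the highest in alpha Pdx1 DT, and 12.23, 3.66, 6.28, 5.99 and 11.53 in alpha Pdx1. In alpha DT it was 17.31, 16.66, 11.40 and 15.16, and its lowest, median and highest values were 8.75, 13.51 and 16.98 in beta and 9.21, 12.11 and 16.17 in alpha. At its highest, in alpha Pdx1 DT library 2, Ctrb1 was the gene of rank 9 in the library, and in alpha Pdx1 library 2 it was of rank 16058. Its range over libraries, 13.81, was the widest of the 10 genes.

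Cela1, Cela2a and Cela3b encode elastases, which are proteases. Cela1 averaged 10.36 ± 3.55 in alpha Pdx1 DT, 7.37 ± 3.56 in alpha Pdx1, 12.07 ± 2.44 in alpha DT, 10.59 ± 3.54 in beta and 10.65 ± 2.40 in alpha. Cela2a had its lowest value, 3.44, in alpha Pdx1 library 4 and its highest, 15.02, in beta library 1. Cela3b had its lowest value, 3.28, in alpha Pdx1 library 2 and its highest, 13.83, in alpha Pdx1 DT library 2. Within each of these genes, all groups again overlapped. Cela2a overlaps the gene Casp9 at its end in the annotation.

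The carboxypeptidases trim single residues from the ends of peptides, Cpa1 mainly hydrophobic ones and Cpb1 basic ones. Cpb1 was 6.02, 11.30 and 15.40 at the lowest, median and highest in alpha Pdx1 DT, and 10.79, 3.43, 4.99, 4.25 and 12.38 in alpha Pdx1. It was 15.07, 15.43, 9.10 and 13.65 in alpha DT, and its lowest, median and highest values were 7.08, 11.65 and 15.69 in beta and 7.12, 11.20 and 13.70 in alpha. The ranges of Cpb1 overlapped between all groups. Cpa1 ran from 3.69 in alpha Pdx1 library 4 to 15.27 in beta library 1.

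Fat digestion is served by Pnlip, the pancreatic triglyceride lipase, by its cofactor colipase (Clps), which anchors the lipase to bile-covered fat droplets, and by the bile-salt-activated lipase Cel. Clps was 5.38, 9.43 and 14.19 at the lowest, median and highest in alpha Pdx1 DT, and 7.91, 1.28, 2.65, 2.72 and 8.15 in alpha Pdx1. It was 14.25, 14.63, 6.87 and 11.63 in alpha DT, and its lowest, median and highest values were 5.62, 9.62 and 13.96 in beta and 4.72, 8.32 and 11.71 in alpha. The highest alpha Pdx1 value of Clps lay below the medians of alpha Pdx1 DT, alpha DT, beta and alpha, though the ranges overlapped. Pnlip averaged 10.96 ± 3.70 in alpha Pdx1 DT, 7.83 ± 3.86 in alpha Pdx1, 12.55 ± 2.63 in alpha DT, 10.63 ± 3.55 in beta and 11.38 ± 2.31 in alpha. Cel ran from 4.04 in alpha Pdx1 library 3 to 15.14 in beta library 5.

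**Figure D2:**
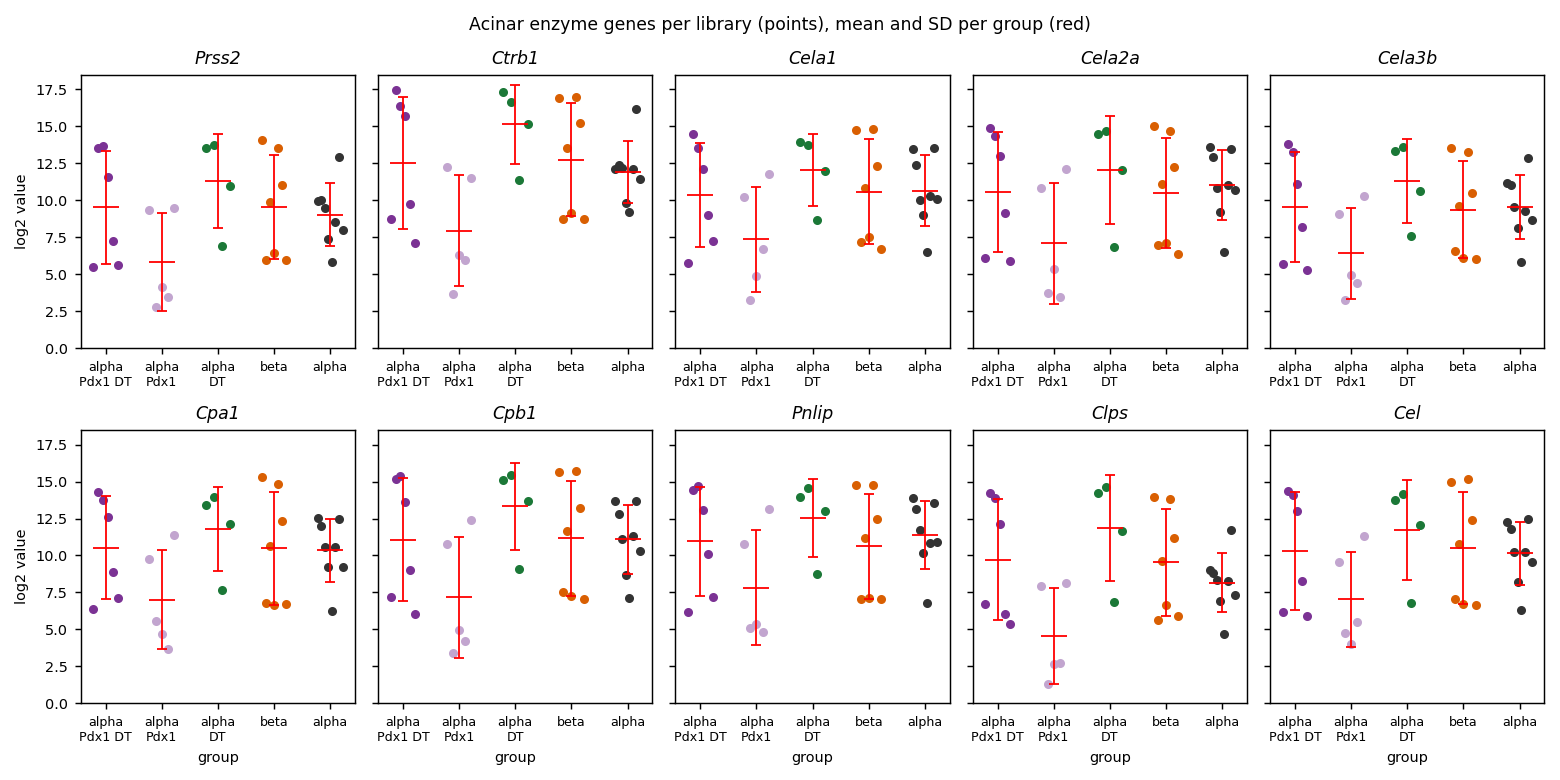
Log2 values of each enzyme gene (1 panel a gene) by group, with 1 point a library and the group mean and SD in red. In each panel the 5 groups overlap, and alpha Pdx1 has the lowest mean, such as 4.54 for Clps.

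The enzyme genes were higher in alpha Pdx1 DT than in alpha Pdx1 in the fitted means, but no gene passed the test. The log2 fold changes of the 10 genes were all positive, with a median of 3.48, a range of 2.99 to 5.18 and standard errors of 1.82 to 2.13, beside a median of -0.06 over all genes. None of the 10 was called (limma, adjusted p under 0.05), beside 9.22% of the 16633 genes tested, and 2 of the 10, Clps and Ctrb1, had an unadjusted p under 0.05. Clps averaged 9.72 ± 4.11 in alpha Pdx1 DT and 4.54 ± 3.24 in alpha Pdx1 (SD, n = 6 and 5), a log2 fold change of 5.18 ± 1.98 (SE, adjusted p = 0.0939). Ctrb1 averaged 12.53 ± 4.48 in alpha Pdx1 DT and 7.94 ± 3.75 in alpha Pdx1, a log2 fold change of 4.59 ± 2.07 (adjusted p = 0.154). This call turned on the treatment of libraries. Without the 5 libraries the log2 fold change of Clps was 6.82 and was called (adjusted p = 0.0448), beside 7.65% of genes. With limma's library weights, 9 of the 10 genes were called, all but Pnlip, beside 22.7% of genes.

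Markers of white blood cells moved in the same direction in that comparison. Of 8 leukocyte and macrophage genes tested, 3 rose: Lyz2 (lysozyme) by 4.54 ± 1.34 (SE, adjusted p = 0.0344), Timd4 by 3.90 ± 1.05 (adjusted p = 0.0214) and Csf1r, a macrophage growth factor receptor, by 3.74 ± 1.03 (adjusted p = 0.0251), on the log2 scale. The mean level of these 8 genes was 4.51 to 10.85 in alpha Pdx1 DT, 3.95 to 5.79 in alpha Pdx1, 8.003 to 11.85 in alpha DT, 5.87 to 11.02 in beta and 4.47 to 7.28 in alpha. No listed gene was at 0, since the lowest value in the table was 0.758. The part of these cells in the enzyme differences was not tested.

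Alpha DT had higher fitted means of the enzyme genes than alpha, again without a call. The 10 log2 fold changes had a median of 1.64, a range of 0.99 to 3.70 and standard errors of 1.84 to 2.15. The median depended on single alpha DT libraries and was 0.970 without library 1, 0.905 without library 2 and 3.08 without library 3. None was called, beside 3.26% of genes, and none had an unadjusted p under 0.05. Clps had the highest, 3.70 ± 2.01 (SE, adjusted p = 0.309), with means of 11.85 ± 3.57 in alpha DT and 8.15 ± 2.00 in alpha (SD, n = 4 and 8). Of 25 other acinar enzyme and granule genes tested, Prss3, a further trypsinogen, rose by 4.74 ± 1.27 (adjusted p = 0.0370) and none fell. Of the 8 leukocyte and macrophage genes, 5 rose, led by Timd4, a receptor of macrophages, with a log2 fold change of 5.71 ± 1.06 (adjusted p = 0.00368), Marco with 5.17 ± 1.26 (adjusted p = 0.0219) and Tyrobp with 4.90 ± 1.08 (adjusted p = 0.0118).

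Alpha Pdx1 had lower fitted means than alpha for all 10 genes. The log2 fold changes ran from -3.99 to -3.10 with a median of -3.44 and standard errors of 1.71 to 2.01. None was called, beside 4.33% of genes, and none had an unadjusted p under 0.05. Ctrb1 had the lowest adjusted p of the 10, 0.288, with means of 7.94 ± 3.75 in alpha Pdx1 and 11.93 ± 2.09 in alpha. The 3 alpha Pdx1 libraries numbered 2, 3 and 4 had means of the 10 genes of 3.69, 4.73 and 4.50, below every alpha library. These means lay below the first quartile of 5.95. Below it, libraries 2, 3 and 4 held only 69, 70 and 59 distinct values, so many genes were tied. Libraries 1 and 5 had means of 10.05 and 11.15, within the alpha range of 6.501 to 13.28. Library 5 is among the 5 libraries with a level against the label. Without the 5 libraries the median was -4.60, and again none was called, beside 6.61% of genes.

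In the other 4 comparisons no enzyme gene passed the test. For alpha Pdx1 DT against alpha the median log2 fold change was 0.08 (standard errors of 1.62 to 1.90), with Clps highest at 1.58 ± 1.77 and Cela2a lowest at -0.47 ± 1.90, and none of the 10 was called, beside 7.81% of genes. For alpha Pdx1 DT against alpha DT it was -1.72, with a range of -2.60 (Ctrb1) to -1.28 and standard errors of 1.94 to 2.27, and none was called, beside 2.1% of genes. For beta against alpha it was 0.09, with Clps highest at 1.39 ± 1.70 and Pnlip lowest at -0.75 ± 1.67, and none was called, beside 34.5% of genes. The median for alpha Pdx1 DT against alpha DT ran from -3.10, without alpha DT library 3, to -0.87, without alpha Pdx1 DT library 1. Without the 5 libraries the beta median was -1.84. The interaction is the difference between groups with and without DT and RIP-DTR in Pdx1 alpha-cells, minus that in alpha-cells without Pdx1. It had a median of 1.62 and standard errors of 2.59 to 3.03. The median ran from 0.228, without alpha DT library 3, to 2.72, without alpha Pdx1 library 5. None of the 10 was called there, beside 0% of all genes (0 of 16633 by limma, of which 1527 had an unadjusted p under 0.05). None of the 10 genes had an unadjusted p under 0.05 in these 4 comparisons. Several of the comparisons share the same alpha, alpha DT or alpha Pdx1 libraries, so they are not independent of each other.

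**Figure D3:**
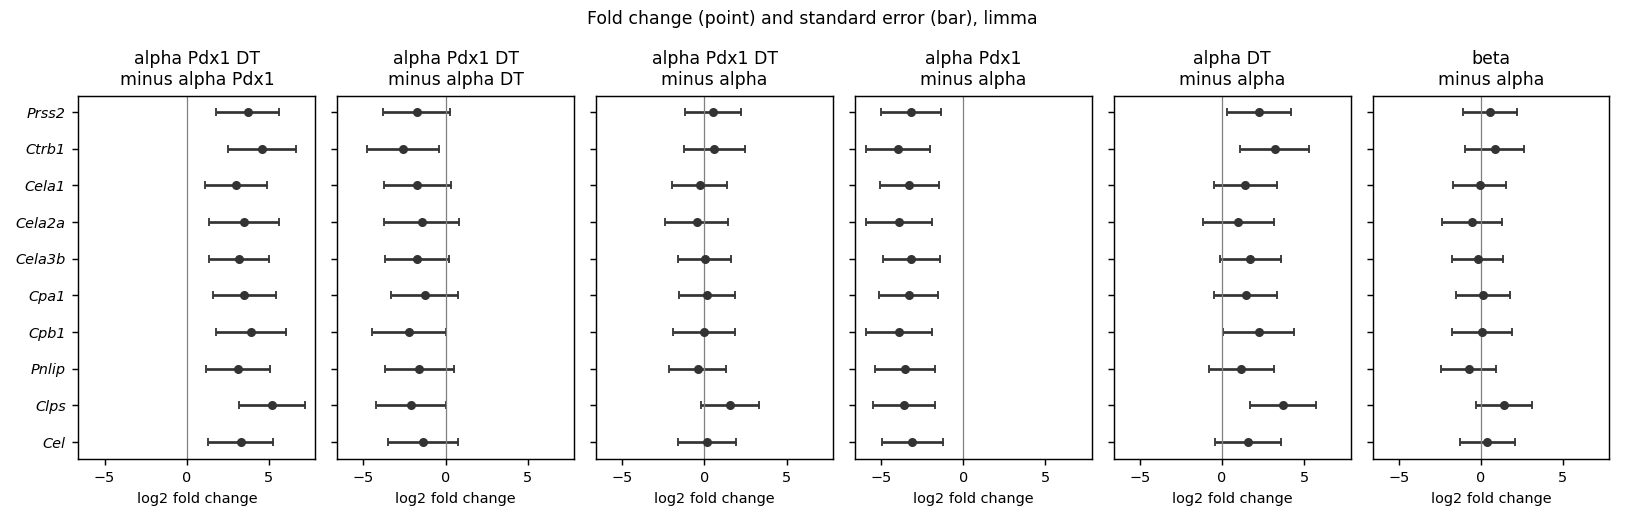
Log2 fold change (points, horizontal axis) and standard error (bars) of each enzyme gene in 6 comparisons, from limma. The genes sit close together within a comparison, with medians of 3.48 for alpha Pdx1 DT against alpha Pdx1 and -3.44 for alpha Pdx1 against alpha, and the standard errors are 1.55 to 2.27.

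The enzyme genes rose and fell together from library to library. Over the 30 libraries, all 45 pairs of the 10 genes were correlated, with Spearman rho of 0.930 (Ctrb1 with Pnlip) to 0.992 (Cela3b with Cela2a) and a median of 0.975. Pearson r was 0.917 to 0.989. Each pair gave a permutation p of 1e-05 on either measure, the smallest that 100000 permutations can give, and the same value after Benjamini-Hochberg adjustment over the 45 pairs. With the 2 libraries farthest from the median of the first gene left out, Pearson r was still 0.904 to 0.992. The pairs were correlated within groups as well. After each group's mean was subtracted, with permutation within groups, rho was 0.898 to 0.987 and all 45 pairs again passed. Within alpha (n = 8) rho was 0.810 to 1, within beta (n = 7) 0.821 to 1 and within alpha Pdx1 DT (n = 6) 0.771 to 1. The first principal component of the 10 genes held 97.1% of their variance over libraries. The second held 1.66%, with Clps (0.57) and Ctrb1 (0.52) on one side and Pnlip (-0.41) and Cela2a (-0.32) on the other. The pairs share libraries and, through quantile normalization, a scale.

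Library-to-library spread was larger for these genes than for nearly any other gene. The SD of a gene over libraries after removal of group means was 3.02 to 3.53 on the log2 scale for the 10 genes, with a median of 3.26, beside a median of 0.535 over all tested genes. All 10 were among the 100 genes with the highest such SD. Cela2a was of rank 3, Cpb1 of rank 4 and Ctrb1 of rank 7. Groups accounted for 17.6% to 34.0% of the variance of the 10 genes, with a median of 20.1%, beside a median of 34.7% over all genes. Clps had the highest share, 34.0%, and Ctrb1 the next, 30.2%.

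**Figure D4:**
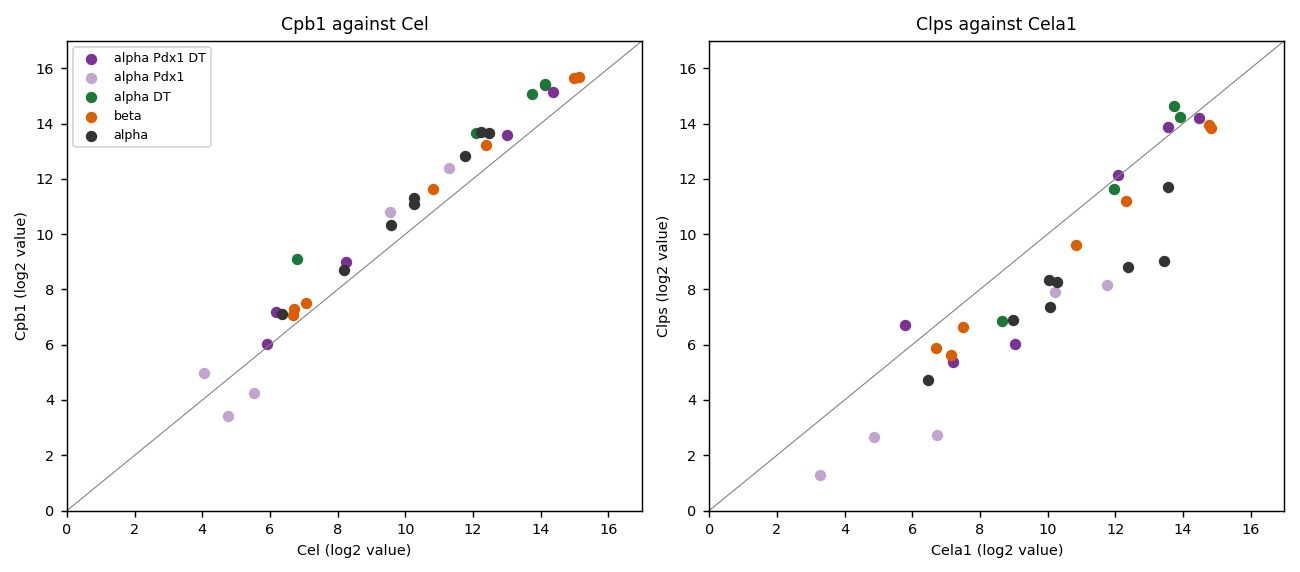
Log2 values of Cpb1 against Cel (left) and Clps against Cela1 (right) in the 30 libraries, colored by group, with the line of equal values in grey. Points of all groups follow 1 band on the left, whereas on the right beta libraries (Clps minus Cela1 of -1.54 to -0.82) sit above alpha libraries (-4.40 to -1.69).

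Clps departed most from the shared pattern. Measured against the mean of the 10 genes in each library, its SD over libraries was 0.93, followed by 0.90 for Ctrb1, against 0.42 to 0.65 for the other 8. The value of Clps minus that of Cela1, a pair chosen after the values were seen, was 0.95, -0.29, 0.33, 0.04, -3.01 and -1.83 in alpha Pdx1 DT libraries 1 to 6, and -2.30, -1.996, -2.21, -4.02 and -3.60 in alpha Pdx1 libraries 1 to 5. It was 0.33, 0.89, -1.79 and -0.33 in alpha DT libraries 1 to 4, and had a median of -1 and a range of -1.54 to -0.82 in beta and a median of -2.04 and a range of -4.40 to -1.69 in alpha. The lowest beta value, -1.54, lay narrowly above the highest alpha value, -1.69. The lowest alpha DT value, -1.79, lay narrowly above the highest alpha Pdx1 value, -1.996. How often other pairs of genes separate these groups was not counted. In alpha Pdx1 DT, the value of -3.01 belongs to library 5, whose Pdx1 level went against its label.

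When the mean of the other acinar genes in each library was added to the model, a step chosen after the data were seen, a fold change gives the difference between groups at an equal level of those genes. Clps was then higher in alpha Pdx1 DT than in alpha Pdx1 by 2.03 ± 0.45 on the log2 scale (SE, limma, adjusted p = 0.00695), 1 of the 10 genes called, beside 10.2% of genes. It was higher in alpha Pdx1 DT than in alpha by 1.45 ± 0.38 (adjusted p = 0.0195), also 1 of 10, beside 8.34% of genes. In beta against alpha the difference was 1.24 ± 0.36 (adjusted p = 0.00772), where Pnlip was lower by a log2 fold change of -0.90 ± 0.34 (adjusted p = 0.0429), 2 of 10 beside 34.8% of genes. The Pnlip call was lost in 11 of the 30 fits that left out 1 library (adjusted p of 0.0166 to 0.0977). In alpha DT against alpha it was 1.53 ± 0.44 (adjusted p = 0.0488), 1 of 10 beside 3.05% of genes, a call so near the threshold that it was lost in 19 of the 30 fits that left out 1 library (adjusted p of 0.0232 to 0.115). Leaving out 1 library kept the Clps call in all 30 fits for alpha Pdx1 DT against alpha Pdx1 and for beta against alpha. It was lost for alpha Pdx1 DT against alpha without library 1 (adjusted p = 0.0637) or library 4 (adjusted p = 0.0555) of alpha Pdx1 DT. Without the 5 libraries the 4 Clps differences were 2.05, 1.73, 1.28 and 1.52, in the same order, and each was called, beside 8.66%, 21%, 31.7% and 4.04% of genes, whereas Pnlip in beta was not (-0.75, adjusted p = 0.124). In alpha Pdx1 against alpha, Clps differed by -0.58 ± 0.42 (adjusted p = 0.518) and none of the 10 was called, beside 4.74% of genes. The interaction for Clps was 0.49 ± 0.60 (adjusted p = 0.815). These fits were repeated only with libraries left out, not with library weights or the other alternatives described below. Clps was 1.285, 2.645 and 2.717 in alpha Pdx1 libraries 2, 3 and 4, near the lowest value of a library, which was 0.758 to 2.348.

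The genes most like the 10 across libraries were further acinar products. Spearman rho with the mean of the 10 genes over the 30 libraries was 0.994 for Ctrl (a chymotrypsin-like protease), 0.993 for 2210010C04Rik, 0.992 for Amy2a1 (a pancreatic amylase), 0.984 for Sycn (syncollin, of the zymogen granule) and 0.984 for Try4 (a trypsinogen). It was 0.983 for Zg16 (a zymogen granule protein), 0.982 for Try5, 0.982 for Pnliprp2 (a lipase-related protein), 0.981 for Reg1 (a secreted lectin-like protein of acinar cells) and 0.976 for Amy2b. Of 16623 other genes, 21 had a rho of at least 0.9 and 31 of at least 0.8, beside a median of -0.04, and none had one of -0.8 or less. These rhos are descriptions over libraries that share a scale. The amylase and trypsinogen genes are near-identical copies whose reads may be shared. Tcrb, named here after its value was seen, had a rho of 0.953. Of the trypsinogen-type genes searched for by name, RefSeq places 7 inside its span, Prss2, 2210010C04Rik and Try4 among them. Its value may therefore hold reads of those genes.

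**Figure D5:**
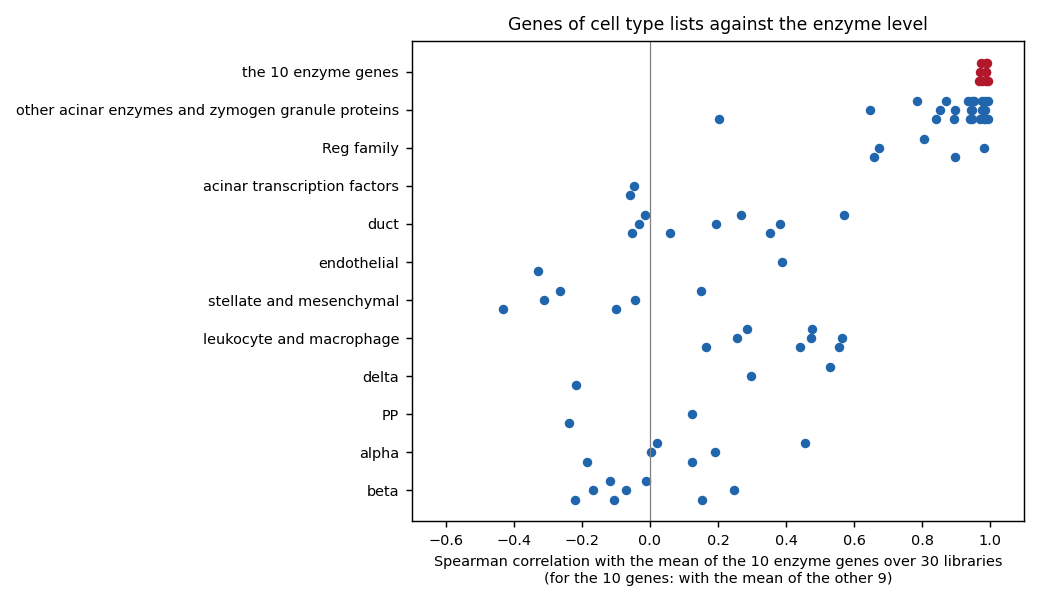
Spearman correlation of each gene of the cell type lists (rows) with the mean of the 10 enzyme genes over 30 libraries, 1 point a gene. The 10 genes, each against the mean of the other 9, and most other acinar genes lie near 1, whereas the acinar transcription factors that passed the filter on low values lie at -0.05 and -0.06.

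Other acinar enzyme and zymogen granule genes followed the 10 with few exceptions. The mean of the 25 genes of that list had a rho of 0.989 with the mean of the 10, and the mean of 5 Reg genes one of 0.887. Among single genes, Amy1, the amylase gene expressed mainly outside the pancreas, had a rho of 0.20 and Prss3 one of 0.65. The mean of 4 acinar transcription factors had a rho of 0.270, and 0.261 after each group's mean was subtracted. Of the 2 that passed the filter on low values, Bhlha15, which shapes the secretory apparatus of acinar cells, had a rho of -0.05 and Xbp1, a regulator of the secretory pathway in many cell types, one of -0.06. In beta against alpha both were higher, Bhlha15 by 2.34 ± 0.37 (adjusted p = 7.74e-06) and Xbp1 by 0.88 ± 0.17 (adjusted p = 9.65e-05), beside 34.5% of all genes called, where none of the 10 enzyme genes was called. Ptf1a and Rbpjl were on the list of 6 acinar transcription factors searched for, of which 4 were in the expression table. Neither was among the 2 that passed the filter, so neither was tested.

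Marker lists of other cell types, set against the enzyme genes in the same way, had lower correlations of their means than the other acinar enzyme and Reg lists. The mean of the acinar transcription factors, with a rho of 0.270, lay below several of them. Differences between lists were not tested. The mean of 9 duct genes had a rho of 0.445 with the enzyme mean, that of 8 leukocyte and macrophage genes 0.476, that of 3 delta-cell genes 0.383 and that of 2 endothelial genes 0.362. For 6 stellate and mesenchymal genes it was -0.16 and for 8 beta-cell genes -0.01. For 6 alpha-cell genes it was 0.109 and for 2 genes of PP cells -0.18. Gcg, which stood at the top value of the table in many libraries, had a rho of 0.456, and Rn18s-rs5, a ribosomal RNA transcript, one of 0.285. The genes with the lowest rho were 100689012 (-0.66), Ptprn2 (-0.65), Rhof (-0.63), Chgb (-0.63) and Arhgef7 (-0.63). Ptprn2 and Chgb encode proteins of the hormone granules of endocrine cells. No part of any of these cell types in the enzyme levels was tested.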

How the data were processed

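The submitters' processing notes name GSNAP as the aligner of these sorted-cell RNA-seq libraries and GRCm38 as the genome. RNA came from a micro column kit, per the labels. The version of the aligner, the annotation and how reads were counted are not stated in the processing notes. The authors' table holds log2 values for 17775 genes in 30 libraries. Of the deposited columns, 28 have plain numbers as headers and are listed as a score, on the same log2 scale as the others. Apart from the lowest values, the values have a largely common distribution in all libraries, as quantile normalization gives. No count test fits such values.

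A gene entered the tests if 4 or more libraries had a value of 5 or more, which kept 16633 genes, all 10 enzyme genes among them, and removed 1142. Limma 3.58.1 in R 4.3.3 fitted 1 mean per group with an intensity trend and robust variances, with two-sided p-values and Benjamini-Hochberg adjustment over all genes tested, with a threshold of 0.05. Pairs of genes were tested by 100000 permutations of libraries. Replicate numbers follow the order of deposit and pair nothing. Genes named beyond the 10 are the 10 highest and 5 lowest in correlation with them, and up to 3 per marker list and comparison. The genes and lists were chosen with earlier results of these data known. Both test scripts were tested on simulated data. Promoters were taken from RefSeq (GRCm38.p6). Python 3.11.15, numpy 2.4.6, pandas 2.3.3 and matplotlib 3.10.9 were used. Alternatives covered filters, an offset of 32, library weights, rescaling, covariates, variance models, the groups fitted and libraries left out.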

Additional observations from a re-analysis of the deposited data

Results flagged for a closer look

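Of 50 sets of values (10 genes in 5 groups), 1 held a library far from the others of its group. Ctrb1, the chymotrypsinogen B gene, was 16.17 in alpha library 7, while the median of the 8 alpha libraries was 12.11 and the lowest was 9.21. Chance alone marks about 1 in 20 such sets. The same library had the highest mean of the 10 genes in its group, 13.28.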

How the results depend on the processing

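No paired analysis was possible because the labels carry no replicate numbers. Under the 9 settings other than leaving out 1 library, and under all 30 fits without 1 library, the 10 genes kept the direction of their fold changes in alpha DT and alpha Pdx1 against alpha and in alpha Pdx1 DT against alpha Pdx1 and alpha DT. In alpha Pdx1 DT against alpha and in beta against alpha, where medians were near 0, up to 5 and up to 6 of the 10 changed sign. Among these, Cela2a was 1.55 in alpha Pdx1 DT against alpha with library weights (-1.34 to 0.46 without 1 library), and Clps was -0.47 in beta against alpha without the 5 libraries. The interaction ran from -0.18 to 2.41 for Clps and from -0.022 to 2.34 for Prss2 without 1 library. Without the mean of the other acinar genes in the model, 0 of the 10 genes were called in every comparison and setting except alpha Pdx1 DT against alpha Pdx1, with 9 under library weights (log2 fold changes of 5.65 to 8.18) and 1 without the 5 libraries, and the cause was not tested. Without 1 library the count there was 0 in each fit. The median SD within groups was 2.97 with the offset and 3.01 without the 5 libraries, against 3.26. Read depth is unknown, so how far low values are set by counting error cannot be given. Below the first quartile of 5.95 the libraries held only 32 to 111 distinct values, so low values were widely tied. Over the libraries of all groups, the 45 pairs had a median rho of 0.964 to 0.977 under every setting tried. Within groups the median was 0.943 in alpha Pdx1 DT, 0.929 in beta and 0.952 in alpha. Counts over all genes moved more, to 208 with library weights and 45 with only the groups compared in alpha DT against alpha (543), to 3371 without the 5 libraries in alpha Pdx1 DT against alpha (1299), and to 0 with Rn18s-rs5 as a covariate in alpha Pdx1 DT against alpha and against alpha Pdx1 (1534). Leaving out 1 library gave 307 to 3487 genes in alpha Pdx1 DT against alpha (lowest without alpha Pdx1 DT library 6), 563 to 2558 in alpha Pdx1 DT against alpha Pdx1 (lowest without alpha Pdx1 library 5) and 138 to 930 in alpha Pdx1 DT against alpha DT (349, lowest without alpha DT library 3), each highest without alpha Pdx1 DT library 5. It gave 301 to 985 in alpha Pdx1 against alpha (721) and 306 to 1078 in alpha DT against alpha. The count in alpha Pdx1 against alpha was 3110 with library weights and 114 with Rn18s-rs5 as a covariate. With only the groups compared, the count was 0 in alpha Pdx1 DT against alpha and against alpha DT.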
